A study of Homo sapiens with 66 samples.

Results

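HIF-1β chromatin binding was compared between HKC-8 cells that lacked HIF-1α and their wild-type (WT) parent. Of the 66 samples of the series, 4 formed this comparison, namely 2 HIF-1β ChIP-seq libraries from WT cells and 2 from cells with a disrupted HIF-1α gene (HIF1aKO). HKC-8 is a human renal tubule cell line. All 4 libraries share the hypoxia (0.5% oxygen, 16 h) and the HIF-1β antibody. The knockout was made with a nickase form of Cas9 and a pair of guide RNAs against an early exon of HIF-1α, and it was studied as a clone, so the deletion and any other feature of that clone cannot be told apart. A HIF-1β site of a genotype was defined as a region with a peak in both of its libraries, which gave 5085 sites in WT cells and 2933 in HIF1aKO cells. HIF-1α and HIF-2α libraries of WT cells, HIF-2α libraries of HIF1aKO cells and HIF-1β libraries of HIF-2α knockout cells (HIF2aKO), all from the same oxygen and time, were used as independent readouts. No HIF-1α library from HIF1aKO cells was analysed here, so loss of the deleted isoform was not checked directly. Peak lists hold no expression, and markers of renal tubule identity could not be examined.

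HIF is a dimer of an oxygen-regulated α subunit and the constitutive partner HIF-1β, also called ARNT. In oxygen the α subunits are hydroxylated by the EGLN enzymes and degraded through VHL. In hypoxia they escape this, join HIF-1β and bind hypoxia response elements (HREs), whose core is ACGTG or GCGTG. HIF-1α and HIF-2α use the same HIF-1β and the same core, and HIF-1α is known for the genes of glycolysis. A HIF-1β peak in cells that lack HIF-1α therefore marks a place where HIF-1β was found without HIF-1α, and HIF-2α is one of its other partners.

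Each WT HIF-1β site was placed in one of 3 states. A site was lost when neither HIF1aKO library had a peak that overlapped it by at least 1 bp, and kept when it overlapped a HIF1aKO site. The rest, nearly all with a peak in a single HIF1aKO library, lay between lost and kept. A HIF1aKO site was gained when neither WT library had a peak there. Sites were also sorted by the α isoforms bound in WT cells. HIF-1α-only sites had a peak in both WT HIF-1α libraries and in neither WT HIF-2α library, HIF-2α-only sites the reverse, sites with both isoforms had a peak in all 4 of these libraries, and sites with neither had none. All other combinations were left as unclear.

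Reference sequence around the HRE core nearest to the site centre is shown for 4 lost sites, 3 kept sites and 1 gained site, because lost and kept sites did not differ much in how often they carried this core. The core is in capitals and the strand is chosen so that it reads ACGTG or GCGTG. The lost sites near HK2 and FABP3 were HIF-1α-only in WT cells, whereas those near ADARB1 and FOS carried both isoforms. All coordinates are GRCh37. The lost windows lay at chr2:75060920-75060974 (HK2, minus strand), chr1:31846305-31846359 (FABP3, minus), chr21:46470804-46470858 (ADARB1, plus) and chr14:75721887-75721941 (FOS, plus). The kept windows lay at chr19:34850316-34850370 (GPI, plus), chr3:5020664-5020718 (BHLHE40, minus) and chr16:85548298-85548352 (GSE1, minus). The gained window lay at chr1:152416840-152416894 (CRNN, minus).
HK2, lost: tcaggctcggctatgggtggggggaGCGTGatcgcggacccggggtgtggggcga
FABP3, lost: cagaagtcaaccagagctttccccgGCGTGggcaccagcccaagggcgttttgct
ADARB1, lost: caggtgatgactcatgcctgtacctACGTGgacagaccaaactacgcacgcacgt
FOS, lost: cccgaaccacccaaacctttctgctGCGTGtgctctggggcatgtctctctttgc
GPI, kept: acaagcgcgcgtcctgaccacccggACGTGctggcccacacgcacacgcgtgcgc
BHLHE40, kept: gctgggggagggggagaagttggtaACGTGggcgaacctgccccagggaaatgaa
GSE1, kept: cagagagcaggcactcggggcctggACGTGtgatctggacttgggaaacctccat
CRNN, gained: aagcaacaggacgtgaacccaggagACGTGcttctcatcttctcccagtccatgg
The HK2 window is intergenic, next to the gene for hexokinase 2, which phosphorylates glucose on entry to glycolysis, and its site centre was 0.279 kb from the nearest transcription start site (TSS). The FABP3 window is intronic, in the gene of a fatty acid-binding protein. Those near ADARB1, FOS, GPI, BHLHE40 and CRNN had intergenic site centres, and that near GSE1 was intronic. Intergenic here and below means outside every protein-coding gene, so a noncoding gene may lie there.

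Far fewer HIF-1β peaks lay at HIF-1α-only sites in the knockout, and the whole lists were shorter. WT lists held 6192 and 8268 peaks on chromosomes 1 to 22, X and Y, and HIF1aKO lists held 3375 and 5781. The groups did not overlap, and the mean log2 number was 0.70 lower, written as a difference of -0.70 (exact permutation test, two-sided, p = 0.333, adjusted p = 0.583). It was -0.31 without HIF1aKO replicate 1 and -1.08 without HIF1aKO replicate 2. With 2 libraries against 2, no comparison here can give a p below 0.333. Adjusted values are by Benjamini-Hochberg over 7 tests. Such a p measures only the spread between these libraries, which the study describes as independent experiments although the labels do not say that they were separate cultures. Depth is unknown from the lists, and its part in their length was not tested. The score that the peak caller gave each peak rises as its p-value falls, and such a score also rises with depth. It ran from 50 to 3233.06 over the HIF-1β lists of WT and HIF1aKO cells. Scores are printed to show each library's call, and comparisons between libraries rest on calls and on ranks within a list. The caller gave many of the best peaks the same score of 3100, so sites at that value are tied and their order is not resolved. HIF-1β peaks at HIF-1α-only sites numbered 136 and 137 in WT cells and 6 and 20 in HIF1aKO cells. Both knockout libraries were below both WT libraries in this count by far more than the spread between replicates. As a share of the list this was 2.20% and 1.66% in WT cells and 0.178% and 0.346% in the knockout. The share of peaks at all WT HIF-1α sites, with or without HIF-2α, was 17.7% and 13.1% in WT and 22.2% and 14.6% in HIF1aKO libraries, so the groups overlapped. That difference of 2.98 percentage points was -8.36 when each list was trimmed to the length of the shortest.

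**Figure D1:**
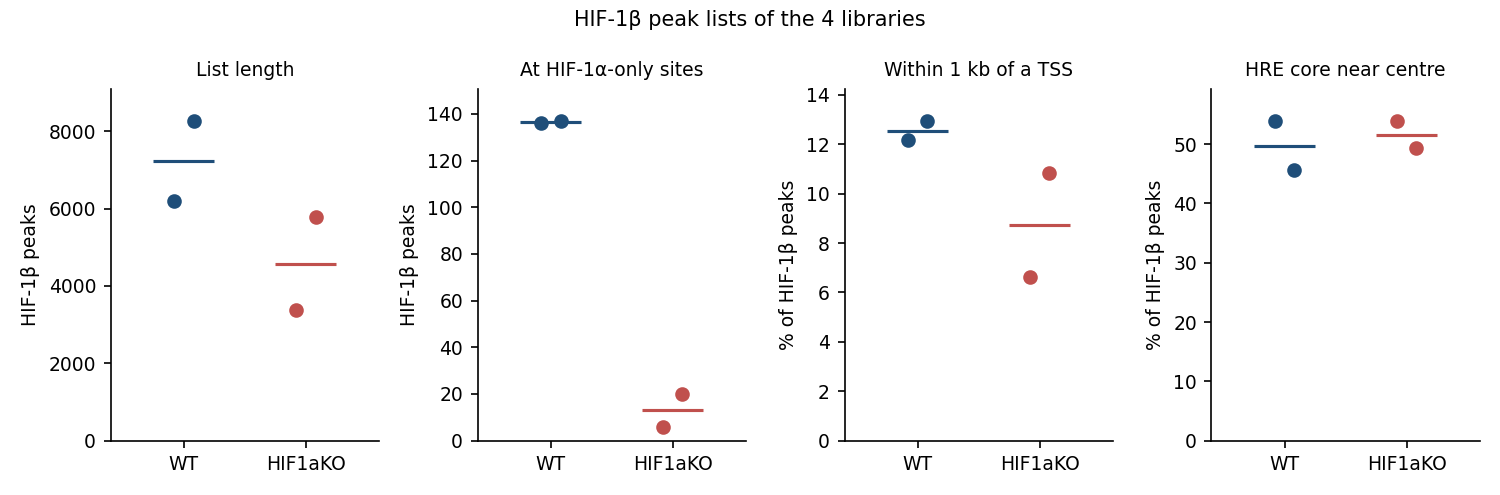
HIF-1β peak number, peaks at HIF-1α-only sites, percent of peaks within 1 kb of a protein-coding TSS and percent with an HRE core within 100 bp of the peak centre, for each WT and HIF1aKO library (points) with the mean of 2 (line). The clearest separation is at HIF-1α-only sites, where WT libraries had 136 and 137 peaks and HIF1aKO libraries 6 and 20.

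Of the 5085 WT sites, 1591 were lost in HIF1aKO cells (31.3%, 95% Clopper-Pearson interval 30.0 to 32.6%). Another 1087 (21.4%) lay between lost and kept, and 2407 (47.3%) were kept. These intervals cover counting error only. The HIF1aKO libraries contributed unequally to the middle group, since 946 of its 1083 sites with a peak in a single library (87.4%) had it in replicate 2, the longer list. The share lost was 33.98% without HIF1aKO replicate 1 and 49.97% without HIF1aKO replicate 2. The absence of a peak means a score under the caller's limit, not an absence of HIF-1β. The best WT peaks were missing from the HIF1aKO lists far more often than from the other WT list. Of the top quintile of WT replicate 1 peaks by score, 0.0808% had no peak in WT replicate 2, whereas 19.8% had none in HIF1aKO replicate 1 and 11.95% none in HIF1aKO replicate 2. For the top quintile of WT replicate 2 these shares were 0.665%, 21.3% and 10.8%. In the other direction, 1.19 to 5.45% of the top quintile of HIF1aKO peaks had no peak in a WT list, and 0 and 2.94% had none in the other HIF1aKO list.

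Mean overlap was higher within than between genotypes, though not for every pair of lists. The shorter list overlapped the longer by 83.6% between the WT replicates and by 87.3% between the HIF1aKO replicates. Between genotypes the overlap was 62.1 to 86.7%, with a mean of 75.8%. The 4 between-genotype values thus spanned the WT value, and the mean within minus between was 9.68 percentage points (exact permutation over the 3 pairings of 4 libraries, one-sided, p = 0.333). Over the sites with a peak in all 4 libraries (n = 2407), Spearman's rho of the scores was 0.857 between WT libraries, 0.792 between HIF1aKO libraries and 0.629 to 0.7003 between genotypes. This describes sites of the same chromatin and carries no test.

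The α isoform bound in WT cells separated lost from kept sites. Among HIF-1α-only sites 114 of 133 were lost (85.7%, interval 78.6 to 91.2%), against the 31.3% of all WT sites. The loss was 7.69% (66 of 858) where both isoforms were bound and 21.7% (388 of 1790) at HIF-2α-only sites. At sites where neither isoform was called, 341 of 506 were lost (67.4%), and these were weak sites with a median WT rank percentile of 18.9, where 100 is the best score. The difference between HIF-1α-only and HIF-2α-only sites was 64.0 percentage points. It ranged from 52.0 to 62.8 when any of the 4 libraries was left out.

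In HIF2aKO cells the same WT sites divided the other way. There, 6 of the 133 HIF-1α-only sites had no HIF-1β peak in either library (4.51%), compared with 1265 of the 1790 HIF-2α-only sites (70.7%). Both knockouts share the WT libraries, so their values are given side by side without a test. Of the WT sites, 570 were without HIF-1β in HIF1aKO cells only, and 109 of them were HIF-1α-only. A further 1682 were without it in HIF2aKO cells only, and 1 of those was HIF-1α-only. In both knockouts 1021 were missing, and 345 of these were HIF-2α-only. The HIF2aKO list was itself short, with 1490 sites.

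Weak sites were lost more often than strong ones in HIF1aKO cells, and the isoform difference held at each strength. By quintile (5 groups of equal size) of WT HIF-1β rank, from best to worst, the share lost was 7.87%, 18.9%, 29.4%, 41.9% and 58.4%. In the top quintile 18 of 23 HIF-1α-only sites were lost (78.3%), compared with 8 of 122 HIF-2α-only sites (6.56%). In the second quintile 41 of 51 (80.4%) and 38 of 482 (7.88%) were lost. HIF-1α-only sites had the higher lost share in each of the 5 quintiles, although the lowest quintile held only 6 of them. All these sites come from the same libraries and are not replicates, so no test was made over sites.

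**Figure D2:**
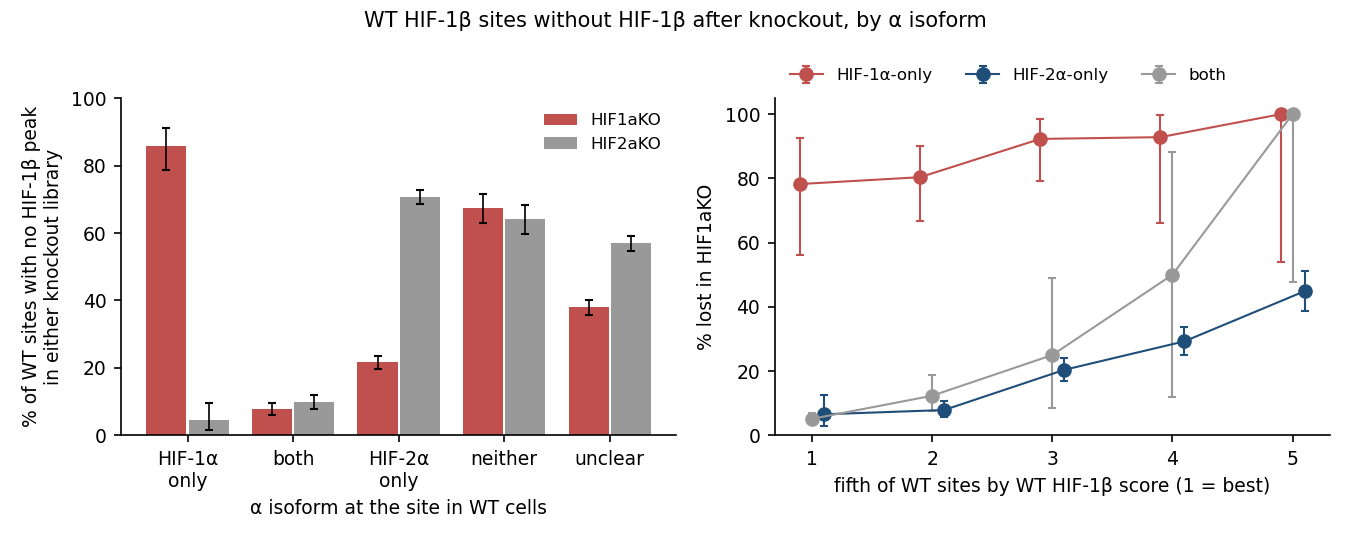
Left, percent of WT HIF-1β sites with no HIF-1β peak in either library of HIF1aKO (red) or HIF2aKO (grey), by α isoform bound in WT cells. Right, percent lost in HIF1aKO for 3 of these classes by quintile of WT HIF-1β score; bars are 95% Clopper-Pearson intervals. HIF-1α-only sites were lost in 85.7% of cases in HIF1aKO and 4.51% in HIF2aKO.

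The best-ranked lost site of this class was at PPP1R3E, a glycogen-targeting subunit of protein phosphatase 1. Its HIF-1β scores were 857.68 and 959.19 in WT cells, with no peak in either HIF1aKO library and 784.18 and 568.69 in HIF2aKO cells. At HK2 the scores were 700.75 and 894.87 in WT cells, with no peak in HIF1aKO cells and 1023.02 and 544.65 in HIF2aKO cells. The site 3.35 kb from KDM5B, a histone H3K4 demethylase, had 712.68 and 595.65 in WT cells, again with no peak in HIF1aKO cells. Neither this HK2 site nor the KDM5B site had a HIF-2α peak in HIF1aKO cells. A second HK2 site, 17.6 kb from the TSS and HIF-2α-only in WT cells, lay between lost and kept. In HIF1aKO replicate 1 that second site scored 52.21 for HIF-1β and 52.2 for HIF-2α. In all, 101 of the 114 lost HIF-1α-only sites (88.6%) had no HIF-2α peak in either HIF1aKO library, and 92 had HIF-1β in both HIF2aKO libraries. Among all 1591 lost sites these counts were 1155 and 308. The 6 kept sites of the class were led by NARF, whose HIF-1β scores were 650.04 and 702.68 in WT and 103.65 and 152.52 in HIF1aKO cells. At NARF HIF-2α was called in both HIF1aKO libraries, with scores of 701.26 and 485.05. PPP1R3E and NARF were named after their values were seen.

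Promoters lost HIF-1β more often than distal sites. Within 1 kb of a protein-coding TSS, 322 of 627 WT sites were lost (51.4%, interval 47.4 to 55.3%), compared with 29.6% at 1 to 10 kb, 27.9% at 10 to 100 kb and 28.6% beyond 100 kb. The difference between sites within 1 kb and all others, 22.9 percentage points, was 14.6 with a limit of 5 kb and 12.1 with the TSS of all annotated transcripts. Proximal sites were lost more than distal ones in each quintile of WT rank, from 19.7% against 5.86% in the best to 71.0% against 57.0% in the worst. The contrast with distance lay in some isoform classes and not in others. At sites left as unclear, 56.2% (141 of 251) were lost within 1 kb and 34.4 to 35.3% farther away, and where neither isoform was called 79.5% (97 of 122) were lost within 1 kb and 60.5 to 64.7% farther away. Where both isoforms were bound the shares were close, with 7.34%, 7.34%, 7.95% and 7.64% lost from nearest to farthest. At HIF-2α-only sites 17.1% were lost within 1 kb and 24.1% beyond 100 kb, with overlapping intervals. HIF-1α-only sites were the most promoter-bound class, since 75 of 133 lay within 1 kb of a TSS (56.4%), compared with 12.7% of sites with both isoforms and 3.91% of HIF-2α-only sites. Of those 75, 64 were lost (85.3%). HIF-1α-only sites farther away were lost about as often, with 25 of 26 at 1 to 10 kb, 17 of 23 at 10 to 100 kb and 8 of 9 beyond 100 kb.

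**Figure D3:**
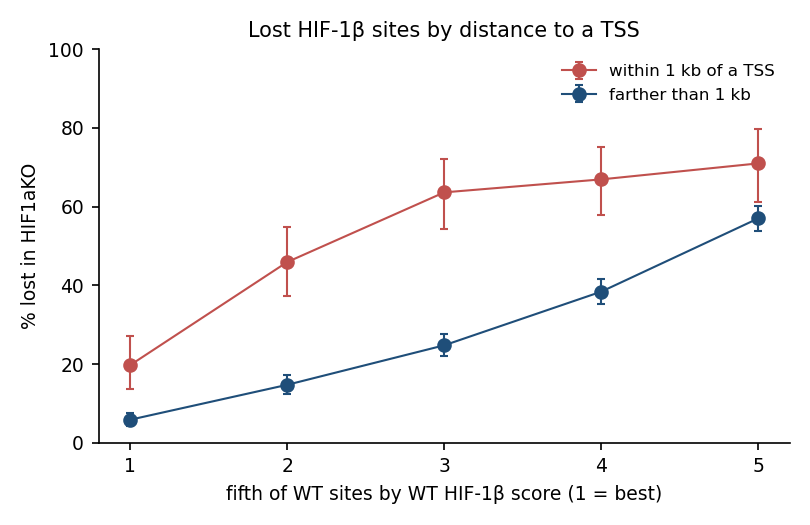
Percent of WT HIF-1β sites lost in HIF1aKO by quintile of WT HIF-1β score, for sites within 1 kb of a protein-coding TSS and for sites farther away; bars are 95% Clopper-Pearson intervals. The share was higher near a TSS in each quintile, from 19.7% against 5.86% to 71.0% against 57.0%.

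Read by library, the promoter-proximal share of HIF-1β peaks was 12.2% and 12.9% in WT cells and 6.64% and 10.8% in HIF1aKO cells. The groups did not overlap, and the knockout minus WT mean was -3.81 points (p = 0.333 by exact permutation, adjusted p = 0.583). The difference was -1.71 without HIF1aKO replicate 1 and -5.91 without HIF1aKO replicate 2. Median distance to a TSS was 24.7 and 25.2 kb in WT cells and 30.3 and 25.1 kb in HIF1aKO cells, so the groups overlapped.

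Lost sites kept the sequence features of HIF sites. An HRE core lay within 100 bp of the centre of 53.2% of lost, 49.9% of kept and 54.7% of gained sites. Windows shifted by 2 kb held it in 20.6%, 21.98% and 23.9% of cases. By library the share was 53.9% and 45.6% of WT peaks and 53.9% and 49.3% of HIF1aKO peaks (difference 1.86 percentage points, exact permutation, p = 1), and its sign changed with lists of equal length, without WT replicate 2 and without HIF1aKO replicate 1. CACGTG, the E-box that contains ACGTG, was in 8.05% of lost and 7.27% of kept sites. The AP-1 motif, TGACTCA or TGAGTCA on both strands, was in 15.5% of lost, 17.5% of kept and 12.1% of gained sites, with 3.33%, 4.07% and 6.05% at 2 kb. Per library the AP-1 share was 17.9% and 16.6% in WT cells and 18.04% and 16.7% in HIF1aKO cells, a difference within the replicate spread. A HIF-1α-only site carried an HRE core in 66.2% of cases, more often than a HIF-2α-only site (42.7%). The share was 57.0% where both isoforms were bound and 53.8% where neither was called. Mean GC content was 55.9% at HIF-1α-only and 48.4% at HIF-2α-only sites. No share in shifted windows is given for these classes.

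HIF-2α binding in the knockout divided the sites in nearly the same way as HIF-1β. It was called in both HIF1aKO libraries at 2273 of the 2407 kept sites (94.4%) and at 137 of the 1591 lost sites (8.61%). In the other direction, 137 of the 3013 WT sites with HIF-2α in both HIF1aKO libraries were lost (4.55%). The background lost share of 31.3% lay well above this. Already in WT cells 84.0% of kept and 34.3% of lost sites had HIF-2α in both libraries, and 29.95% of kept and 14.02% of lost sites had HIF-1α in both. HIF-1α was thus called more often at kept than at lost sites, most of the kept ones with HIF-2α as well.

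Most of the lost sites of best WT rank also had no HIF-2α peak in the knockout. The 12 lost sites with the best WT rank lay near ADARB1, MYL4, FOS, ARHGAP45, IGFBP3, RAB40C, TBL1XR1, PLEKHG3, CBX5, KCNN1, MRPS18A and CDC5L. Of these sites 10 had both isoforms in WT cells and none was HIF-1α-only by the definition above. At 10 of the 12 (83.3%), neither HIF-2α library of HIF1aKO cells had a peak, and at 9 HIF-1β was called in both HIF2aKO libraries. Of all 1591 lost sites, 1155 had no HIF-2α peak in HIF1aKO cells, so 10 of 12 is close to the share over all lost sites. HIF-1β in both HIF2aKO libraries was found at 308 of the 1591 (19.4%). The site near ADARB1, an adenosine deaminase that edits RNA, scored 3100 in both WT HIF-1β libraries and in both WT HIF-2α libraries, and it had no peak in any of the 4 HIF1aKO libraries. Its HIF-1β scores in HIF2aKO cells were 977.2 and 695.86. This site, at chr21:46469339-46472195, was intergenic and 23.7 kb from the nearest TSS. The intergenic site 23.7 kb from FOS, which encodes a subunit of AP-1, scored 1176.89 and 1962.55 in WT HIF-1β libraries and had no peak in any HIF1aKO library. Near IGFBP3, a binding protein for insulin-like growth factors, the WT HIF-1β scores were 1160.61 and 1491.32, and no HIF-1β peak was called in either knockout, 636 kb from the TSS. At CBX5, which encodes heterochromatin protein 1α, the scores were 1447.65 and 1198.53 at 0.113 kb from the TSS, and HIF-1α was strong (1220.41 and 843.11) whereas HIF-2α was called only once in WT cells, with 54.93. Over all 66 lost sites with both isoforms in WT cells, 43 (65.2%) had no HIF-2α peak in HIF1aKO cells and 13 had it in both libraries. The share without HIF-2α was thus lower than over all lost sites (1155 of 1591). Whether these places differ in the clone itself was not tested.

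The 8 kept sites with the best rank over the 4 libraries lay near ARRDC3, ECE1, MTHFD1L, SUSD1, FRMD4A, AC092291.2, GSE1 and GADD45B. All 8 carried both isoforms in WT cells and HIF-2α in both HIF1aKO libraries. At ECE1, the endothelin-converting enzyme, HIF-1β scored 3233.06 and 3100 in WT cells and 2715.54 and 3100 in HIF1aKO cells. The site near ARRDC3, an α-arrestin, scored 3127.1 and 3100 in WT cells and 3100 and 3100 in the knockout, all at or above the value at which scores are tied.

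Kept sites nevertheless changed their order. Among the 2407 sites with a peak in all 4 libraries, 721 had HIF-1α in both WT libraries. Their mean rank percentile was 80.5 and 77.9 in WT libraries and 70.3 and 68.6 in HIF1aKO libraries. The groups did not overlap, and the difference was -9.74 percentile points (WT 79.2 ± 1.88, HIF1aKO 69.4 ± 1.21, SD, n = 2, exact permutation, p = 0.333, adjusted p = 0.583). The 1686 sites without HIF-1α in both WT libraries went from 36.95 and 38.1 to 41.3 and 42.1, since ranks in a fixed set sum to a constant. At 309 of the 721 (42.9%) both knockout ranks were below both WT ranks, whereas this was so at 283 of the other 1686 (16.8%). Unlike the number of lost sites, this measure moved little when a library was left out (-12.5 to -8.58).

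Sites with both isoforms differed by the balance of the isoforms in WT cells. The 858 sites with both isoforms were divided into quintiles by their WT HIF-1α rank minus their WT HIF-2α rank, neither of which uses a HIF-1β call. Where HIF-2α ranked highest relative to HIF-1α, 160 of 172 sites were kept (93.0%, interval 88.1 to 96.3%). In the next quintiles 91.2%, 89.5% and 75.4% were kept, and where HIF-1α ranked highest 104 of 172 (60.5%, interval 52.7 to 67.8%). The median WT HIF-1β rank percentile was similar in all 5 quintiles, from 85.7 to 92.1. The difference of 32.6 percentage points between the end quintiles was 12.2 without HIF1aKO replicate 1. The sites of the class that lay between lost and kept numbered 89, of which 75 had a peak in HIF1aKO replicate 2 only. The knockout minus WT difference in mean rank percentile, over sites in all 4 libraries, was -3.58 in the first quintile and -26.7 in the last. In the last quintile it was 83.5 and 77.7 in WT libraries and 55.5 and 52.4 in HIF1aKO libraries. This quintile also held the most promoters, with 36.0% of sites within 1 kb of a TSS compared with 2.91% in the first.

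**Figure D4:**
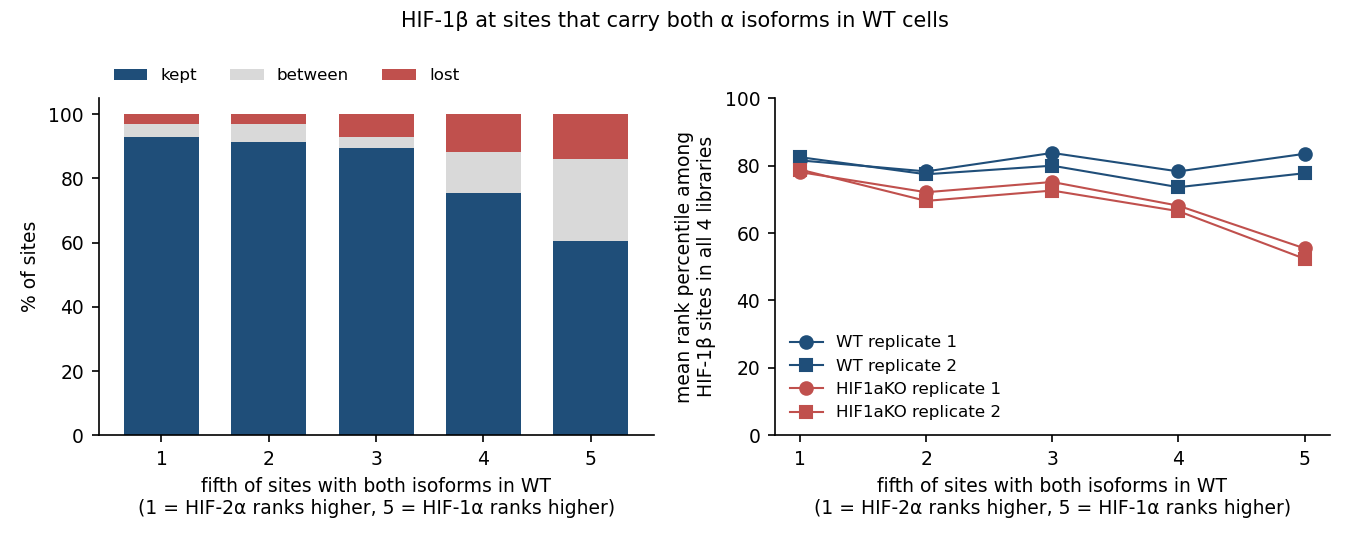
Sites with both isoforms in WT cells, in quintiles from HIF-2α ranking higher (1) to HIF-1α ranking higher (5). Left, percent kept, between and lost in HIF1aKO; right, mean HIF-1β rank percentile in each of the 4 libraries over sites with a peak in all 4. The share kept was 93.0% in quintile 1 and 60.5% in quintile 5, and the knockout minus WT rank difference was -3.58 and -26.7 percentile points.

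Genes of the hypoxic response were then read by role, from 14 lists with 96 genes, each site being assigned to its nearest protein-coding TSS. The lists had a WT HIF-1β site at 65 genes and 146 sites in all, of which 28 were lost (19.2%, interval 13.1 to 26.5%), 26 lay between and 92 were kept. The lost share over all WT sites was 31.3%. Leaving out single libraries gave 21.2 to 34.9% at the listed genes, with 34.9% without HIF1aKO replicate 2 and 29.4% without WT replicate 1. In those settings 49.97% and 45.1% of all WT sites were lost. Every WT site was lost at 7 of the 65 genes, beside 871 of the 3223 genes nearest to any WT site (27.0%). A kept site and no lost one was found at 38 of the 65, a count without an all-gene value here. Genes were not matched for their number of sites. Of the 41 sites within 1 kb of a listed TSS 6 were lost, 10 lay between and 25 were kept. The lost share was thus 14.6%, beside 51.4% of all WT sites within 1 kb of a TSS. These sets were not matched for WT rank or isoform class. Among all WT sites within 1 kb, the share ran from 19.7% in the best rank quintile to 71.0% in the worst. It was 7.34% where both isoforms were bound and 85.3% at HIF-1α-only sites.

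The lost counts by list that follow are small and stand beside a lost share of 31.3% over all WT sites. The 95% interval of each of the 14 lists included that share, also where no site was lost, so no list stood apart by its count. Glucose uptake and upper glycolysis had sites at 8 of 11 genes, and 5 of 18 sites were lost (27.8%, interval 9.69 to 53.5%). The HK2 promoter was lost, as described above. The other lost sites lay 8.41 kb from SLC2A1, 24.7 kb from SLC2A3, and 602 and 589 kb from PFKP. The PFKP sites were weak, with WT ranks of 4302 and 3951 among 5085. At PFKFB4, a bifunctional enzyme that raises fructose 2,6-bisphosphate, HIF-1β scored 3005.13 and 2395.68 in WT cells, with no peak in HIF1aKO replicate 1 and 117.17 in replicate 2. PFKFB3, of the same family, had 748.37 and 1454.21 at its promoter-near site 1.18 kb from the TSS, with no peak and 50.52 in the knockout. Both sites were called in HIF2aKO cells, with scores of 2875.37 and 1389.08 at PFKFB4 and 754.44 and 977.19 at PFKFB3. At GPI, glucose-6-phosphate isomerase, the promoter site was kept, and its rank percentile went from 99.4 and 96.7 to 91.9 and 87.6. The promoter of ALDOA, aldolase A, went from 76.7 and 78.4 to 94.2 and 99.8. The site 34.6 kb from SLC2A3, the glucose transporter GLUT3, went from 83.6 and 83.2 to 96.4 and 99.9. The groups did not overlap at any of these last 3 sites.

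In lower glycolysis none of 7 sites was lost, and 4 of 7 genes had a site. PGK1, phosphoglycerate kinase, scored 1375.88 and 2531.01 in WT cells and had no peak in HIF1aKO replicate 1 and 303.02 in replicate 2. ENO1, enolase, likewise went from 1013.4 and 1367.04 at its promoter to no peak and 141.87. GAPDH kept its site, and its rank percentile was 97.9 and 98.5 in WT and 82.2 and 85.6 in HIF1aKO cells. LDHA, lactate dehydrogenase A, was the only gene with a site in the list for the fate of pyruvate and lactate, and both of its sites were kept. Near its TSS the score was 263.66 and 1094.91 in WT cells and 1895.65 and 3100 in HIF1aKO cells, and the rank percentile went from 55.0 and 83.4 to 98.3 and 99.0. HIF-2α at the same LDHA site scored 684.27 and 354.73 in WT cells and 2951.41 and 3100 in the knockout. Promoters of glycolytic genes thus ranged from no peak at HK2 to a higher rank at ALDOA and LDHA. Such ranks compare a site with other sites of the same library and do not measure occupancy.

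Glycogen metabolism had sites at 4 of 5 genes, with none of 8 lost and 5 between. GBE1, the glycogen-branching enzyme, had 1105.03 and 2469.32 near its TSS in WT cells, no peak in HIF1aKO replicate 1 and 581.27 in replicate 2. The rank percentile at the promoter of PPP1R3C, a glycogen-targeting subunit, went from 53.9 and 63.3 to 90.8 and 96.9. In the list for mitophagy and mTOR stress, 1 of 6 sites was lost. The site at the DDIT4 promoter, which encodes the mTOR inhibitor REDD1, lay between, whereas both of its other sites, one of them 24.1 kb away, were kept. Among carbonic anhydrases and pH regulators 1 of 5 sites was lost. CA9, a hypoxia-induced carbonic anhydrase, had 1612.17 and 2711.78 in WT cells, no peak in HIF1aKO replicate 1 and 160.92 in replicate 2, while both sites near CA12 were kept.

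HIF feedback and oxygen-sensing genes had 22 sites, with 6 lost and 14 kept. EGLN3, a HIF prolyl hydroxylase, had its main intronic site kept, with rank percentiles of 99.4 and 98.5 in WT and 95.3 and 86.6 in HIF1aKO cells. All 4 sites near BHLHE40, a transcriptional repressor, were kept. Its promoter-near site scored 3100 in 3 of the 4 libraries. Of 11 sites nearest to CITED2, a regulator of the HIF coactivator p300, 4 were lost, all more than 200 kb away. The intronic site in HIF1A itself was weak, with scores of 68.84 and 69.35 in WT cells, and was lost. EPAS1, which encodes HIF-2α, kept its only site, and its rank percentile went from 68.4 and 69.0 to 19.3 and 41.5.

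Histone lysine demethylases had a site at 7 of 8 genes, with 2 of 7 lost, 2 between and 3 kept. KDM5B and KDM5C were lost. KDM4C, a HIF-1α-only site, had no peak in HIF1aKO replicate 1 and 51.36 in replicate 2, against 612.3 and 912.57 in WT cells. KDM3A, an H3K9 demethylase, was kept with rank percentiles of 99.4 and 98.5 in WT and 96.0 and 92.7 in HIF1aKO cells. Collagen hydroxylases and lysyl oxidases lost none of 9 sites. LOX nevertheless went in rank percentile from 66.0 and 65.0 to 11.1 and 21.5, whereas P4HA1, a subunit of collagen prolyl hydroxylase, went from 78.6 and 69.7 to 86.2 and 85.7.

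Secreted vascular factors lost 2 of 11 sites. The VEGFA promoter-near site was kept with rank percentiles of 63.2 and 60.2 in WT and 66.9 and 85.1 in HIF1aKO cells, and a weak site 24.7 kb away was lost. ANGPTL4 kept 3 sites, and ADM, adrenomedullin, kept its 1 site. In the lipid list FABP3 lost its HIF-1α-only promoter site (558.42 and 380.96 in WT cells), while PLIN2, a lipid droplet coat protein, and HILPDA kept theirs. Growth control genes lost 3 of 15 sites, and the sites near TGFA and MET were kept. All those lost had IGFBP3 as their nearest gene, including the site 636 kb from its TSS. TGFA went in rank percentile from 90.7 and 90.6 to 97.9 and 99.0. Of the erythropoietin and iron genes, 2 of 6 had a site. CP, ceruloplasmin, kept its site, and HMOX1, haem oxygenase, lay between.

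In the general hypoxia signature 7 of 27 sites were lost. FAM162A, a mitochondrial protein, lost its promoter site, where the HIF-1β scores had been 213.98 and 588.26. INSIG2, a regulator of sterol synthesis, kept its promoter site but had the largest negative rank difference of the 92 listed sites in all 4 libraries, from 95.1 and 90.8 to 18.2 and 2.22. Over those 92 sites, both knockout ranks were below both WT ranks at 30 (32.6%) and above them at 28 (30.4%). Over all 2407 sites the same counts were 592 (24.6%) and 643 (26.7%).

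**Figure D5:**
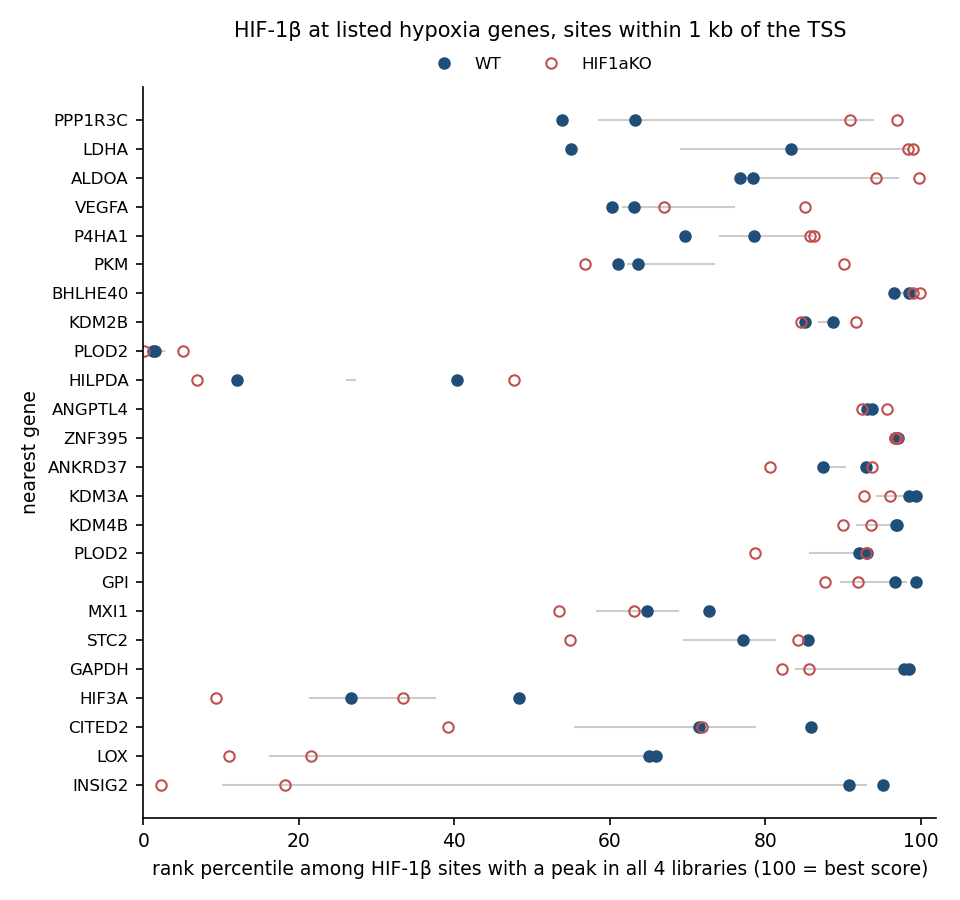
Rank percentile of HIF-1β sites within 1 kb of the TSS of a listed hypoxia gene, for kept sites, in WT (filled) and HIF1aKO (open) libraries; grey lines join the means of 2. LDHA, ALDOA and PPP1R3C ranked higher in both HIF1aKO libraries than in either WT library, and INSIG2, LOX and GAPDH lower.

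Across all genes, 3223 were nearest to a WT site and 871 of them (27.0%) had every WT site lost. At 607 genes a WT site lay within 1 kb of the TSS, and at 309 of these every such site was lost. Only 42 genes combined a lost site near the TSS with a kept site farther away.

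Gained sites were mostly of low rank and distal. Of the 2933 HIF1aKO sites, 190 were gained (6.48%, interval 5.61 to 7.43%), whereas 2417 (82.4%) had a peak in both WT libraries. The gained share was 21.4% without HIF1aKO replicate 1, 15.9% without WT replicate 2 and 10.96% without HIF1aKO replicate 2. With lists of equal length it was 17.7%, and the lost share was then 22.6%. Gained sites made up 1.02% of the best quintile of HIF1aKO sites by rank and 15.8% of the worst. Within 1 kb of a TSS lay 5 of the 190 (2.63%), compared with 6.82% of all HIF1aKO sites. HIF-2α was called in both HIF1aKO libraries at 154 of the 190 (81.1%), a lower share than the 92.3% of all HIF1aKO sites (2706 of 2933). In WT cells it was called in both libraries at 5 and in either at 41. HIF-1α was called in both WT libraries at none of the gained sites, and in a single one at 1. None had HIF-1β in both HIF2aKO libraries. Over all HIF1aKO sites, both WT libraries had HIF-2α at 72.0% and HIF-1α at 24.7%, and both HIF2aKO libraries had HIF-1β at 31.2%. Gained sites were picked for having no WT HIF-1β peak, so low WT counts of the α isoforms follow at least in part from that rule.

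The 6 best-ranked gained sites were nearest to ADSS1, CELF4 and CRNN and, in 3 cases, to MYC. At ADSS1, the muscle isozyme of adenylosuccinate synthase, the HIF-1β scores were 424.02 and 1706.46 in HIF1aKO cells, and HIF-2α scored 1144.99 and 1610.75 there. No WT HIF-1α or HIF-2α library had a peak at ADSS1, and the absence of a WT HIF-1β peak is part of the definition of a gained site. MYC, the proto-oncogene transcription factor, was only the nearest protein-coding gene of these 3 sites. They lay outside protein-coding genes, 116, 139 and 439 kb from its TSS, and noncoding genes were not considered. Their HIF-1β scores in HIF1aKO cells ran from 353.43 to 864.8, and HIF-2α was called at each in both HIF1aKO libraries. No WT HIF-1α or HIF-2α library had a peak there, and WT HIF-1β peaks were absent by definition.

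Lost sites were compared with HIF-1β lists from other cells. In HepG2, a liver cancer line in 0.5% oxygen for 16 h, HIF-1β was called in both libraries at 20.2% of lost and 11.5% of kept sites. Among other HKC-8 libraries of 16 h, a separate time course, it was called in both at 5.78% of lost and 17.6% of kept sites. Of all 5085 WT sites, only 1098 (21.6%) had a peak in either of these time-course libraries. Most WT sites thus also had no call in another experiment on HKC-8 cells without a knockout, which limits what a lost site means. In RCC4, a renal carcinoma line without functional VHL kept in normoxia, it was called in both at 3.52% of lost and 8.68% of kept sites. These libraries took no part in the definition of lost and kept. By chromosome the lost share ran from 23.3% of sites on chromosome 19 to 37.2% on chromosome 13.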

How the data were processed

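Peak lists of 20 ChIP libraries were used, of 50 in the series. Per the labels and the study's methods, the authors trimmed reads with Trim Galore 0.3.3, aligned them to GRCh37 with BWA 0.7.5a-r405, filtered them with SAMtools 0.1.19 and bedtools 2.17.0, marked duplicates with Picard 1.106 and called peaks per library with MACS in control mode (version not given in the sources used here). The deposited value is the MACS score, read as −10 times the log10 of a peak's p-value. The lists hold the MACS calls of 1 library each and were not pooled. Read depth is not in the lists, so no depth-based interval is given.

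The 35 peaks outside chromosomes 1 to 22, X and Y in the 4 HIF-1β lists were left out. A site is the merged interval of overlapping peaks of both replicates. Its centre was assigned to the nearest of 78703 distinct protein-coding TSS positions (GENCODE 44 lifted to GRCh37), and motifs were counted in the 201 bp around it. Shares carry 95% Clopper-Pearson intervals. Libraries were compared by exact permutation. Python 3.11.15, numpy 2.4.6, scipy 1.17.1, pysam 0.24.0, samtools 1.23.1 and matplotlib 3.10.9 were used, and the functions were tested on simulated lists.

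Named sites are the 12 lost, 8 kept and 6 gained sites of best rank, and every listed gene with a site could be named. Sequences shown were picked from these sites after their values were seen, among those with an HRE core. PPP1R3E and NARF lie outside this rule. The members and gene lists were chosen with earlier results of these data known. Alternatives were an overlap of 50%, lists of equal length, scores of at least 100, a TSS within 5 kb or of any transcript, motifs within 50 bp or in the whole peak, stricter loss and gain, isoform classes from either replicate, the replicate block, and each library left out. A few items are not reported here.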

Additional observations from a re-analysis of the deposited data

Results flagged for a closer look

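The promoter-proximal share of HIF-1β peaks moved in opposite directions in the knockouts of the isoforms. It was 12.2% and 12.9% in WT libraries. Both HIF1aKO libraries lay below them, at 6.64% and 10.8% (mean difference -3.81 percentage points), and both HIF2aKO libraries lay above, at 24.95% and 25.5% (mean difference 12.7). The difference between the knockouts was not tested, and both share the WT libraries.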

How the results depend on the processing

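Of 91 recomputed values over 11 results, 61 were counted as unchanged, 22 moved and 8 changed sign. The 61 kept their direction, but they include differences between libraries whose size changed. The HRE share difference was 6.02 without WT replicate 1, compared with 1.86 as reported. The share at WT HIF-1α sites was 0.697 without WT replicate 2, compared with 2.98. The log2 peak number was -0.308 without HIF1aKO replicate 1, compared with -0.696. With lists of equal length (3375 peaks each), the share of peaks at WT HIF-1α sites reversed from 2.98 to -8.36 percentage points and the HRE share from 1.86 to -1.29, the lost share was 22.6%, the gained share 17.7% and the isoform difference 71.7. Peak number has no value in that setting. With scores of at least 100 the AP-1 difference was -0.0949 and the lost share 33.1%. Sites not called in both libraries of the other genotype gave 52.7% lost, 17.6% gained and an isoform difference of 49.1. The promoter difference in lost share, 22.9 as reported, was 14.6 with a TSS within 5 kb and 12.1 with TSS of all transcripts.

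Leaving out each library in turn gave lost shares of 33.98 to 49.97%, gained shares of 8.18 to 21.4%, isoform differences of 52.0 to 62.8 and promoter differences of 18.3 to 23.4. The log2 peak number ran from -1.08 to -0.31, the promoter share from -5.91 to -1.71, the HRE share from -2.30 to 6.02, the AP-1 share from -0.565 to 0.771, the share at HIF-1α sites from -0.798 to 6.77, and the rank percentile from -12.5 to -8.58. Analyses added after seeing the data gave 17.3% lost at listed genes with equal-length lists, 23.7% with scores of at least 100 and 21.2 to 34.9% with single libraries left out, and the kept difference between the end quintiles of isoform balance was 35.6, 43.5 and 12.2 to 33.1.

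The labels do not say whether equal replicate numbers mark a shared batch. Deviations of same-numbered libraries correlated at 0.238 over 2407 sites, and replicate 2 had the longer list and the lower HRE and AP-1 shares in both genotypes. With the replicate block, the lost share was 52.3%, the gained share 22.8% and the isoform difference 53.6, all from pairs of single libraries, and the smallest p possible was 0.5. Unequal list length, with unknown depth, limits every count of lost and gained sites.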
